A study of Mus musculus with 8 samples.

Results

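The response described here is that of control mouse embryonic fibroblasts, primary cells grown from mouse embryos, to growth hormone (GH) given for 2 hours. It was read from 4 of the 8 arrays of the series, chosen by their titles, 2 arrays of control cells with GH and 2 arrays of control cells without it. The control cells, labelled wild type, came from the strain C57BL/6 and were used at passage 13. They were starved for 5 hours before GH was added at 1 ug/ml or left out. The 4 other arrays hold Stat5a/b-null cells of the same strain and passage, again with and without GH. They share the variance estimate and the choice of probe sets with the control arrays. Their levels also enter the first quartile over all genes, used below as a floor for dim genes. Otherwise they are used only for the difference from the control response and for markers. The labels number the replicates 2 and 3 and call them biological, without naming the embryos or cultures behind them, so p-values measure only the spread between these arrays. One null array without GH is replicate 2 by its title and 3 by its source label, and the title was used. The labels name neither the source of the GH nor the number of embryos behind a culture.

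GH binds its receptor, which is coupled to the kinase JAK2, and JAK2 phosphorylates the transcription factors STAT5A and STAT5B. These enter the nucleus and bind paired TTC and GAA half-sites, and among their best known targets are Cish and the Socs genes, whose proteins shut the receptor off again. NF-kappaB is a separate route to rapid transcription: Toll-like receptor ligands and cytokines such as TNF and interleukin 1 release it from the inhibitor IkappaB-alpha, after which it switches on chemokines, cytokines and its own inhibitors. Growth factors and serum act through ERK and raise early genes such as Egr1 and Nr4a1 together with the Sprouty and DUSP genes that restrain ERK.

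The 4 control arrays had nearly the same overall distribution of values, and Pearson's r across probe sets was 0.9968 for the pair without GH and 0.99768 for the pair with GH. Fibroblast genes were bright on all of them. The vimentin gene Vim stood at 14.80 and 14.84 without GH and at 14.86 and 14.89 with GH, on the log2 scale of the deposited values. Of the 12 fibroblast markers, 1 passed the test between the control groups: Pdgfra, a receptor for platelet-derived growth factor, rose by 0.69 ± 0.11 (SE). The summed level of the fibroblast list ranged from 17.56 to 17.59 without GH and from 17.62 to 17.64 with GH on the log2 scale.

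Macrophage and leukocyte transcripts were present on the same arrays. The lysozyme gene Lyz2 stood at 13.84 and 13.96 without GH and at 13.89 and 13.78 with GH, and the complement gene C1qa at 11.97 and 12.16 without GH and 12.12 and 12.06 with GH. None of the 16 macrophage markers lay under 6.10, the first quartile over all genes, in both control groups. Of the 16, only Spi1, a transcription factor of myeloid cells, passed the test between these groups (0.62 ± 0.13, adjusted p = 0.0234), a call that depends on single arrays. The summed level of the list was 15.27 and 15.41 without GH and 15.35 and 15.28 with GH, so those groups overlapped. On the null arrays without GH the sum was 11.22 and 11.10. Of the other marker lists (epithelium, endothelium, lymphocytes, neutrophils and mast cells, skeletal muscle, adipocytes, nerve and glia, cartilage and bone), no member passed the test. The skeletal muscle sum, for example, also differed by genotype without GH, at 13.1 and 13.0 in control and 10.1 and 10.0 in null cells. The part that macrophage transcripts play in the GH response was not tested, and in such bulk samples fewer cells of a type and less RNA per cell cannot be told apart.

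**Figure D1:**
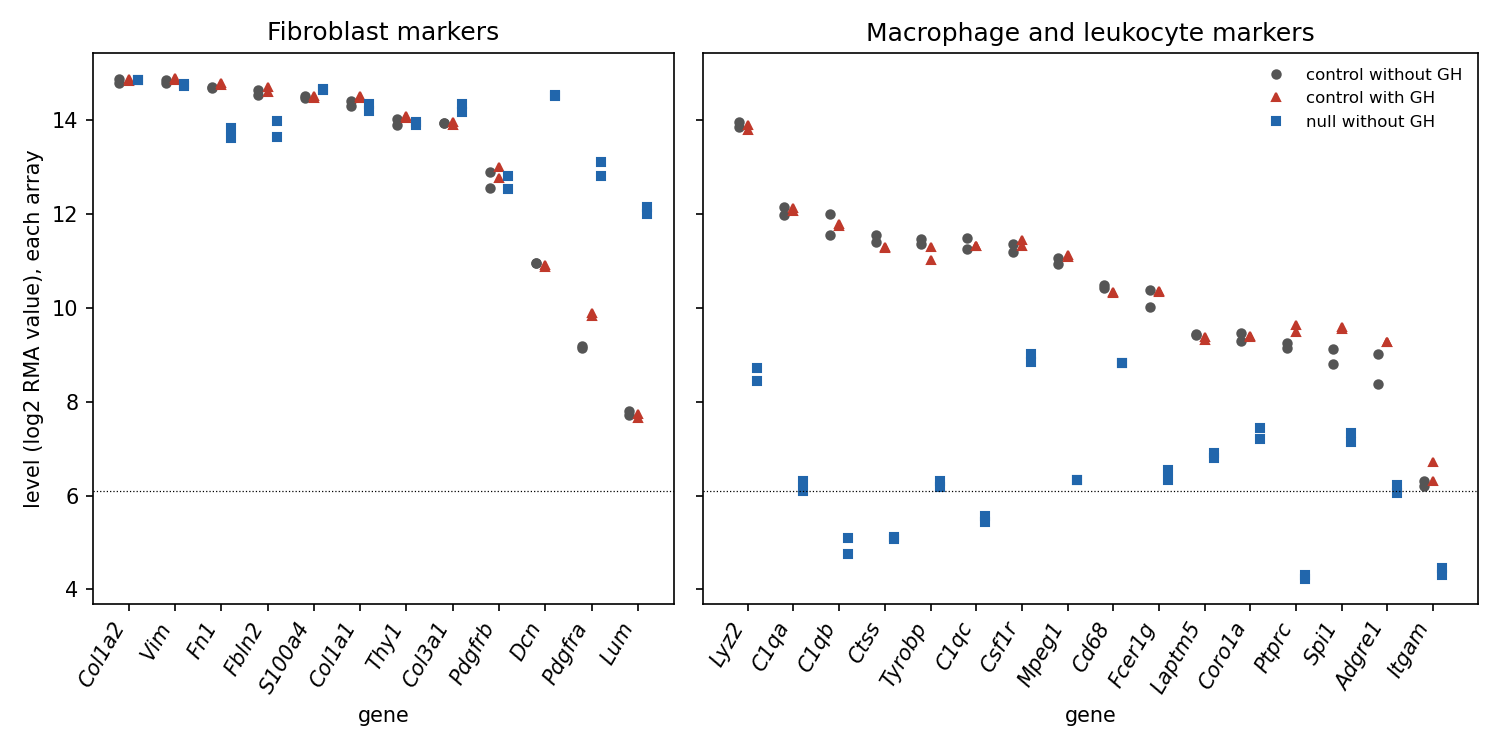
Each point is 1 array, with the log2 RMA level on the y axis and the marker genes on the x axis. The dotted line at 6.10 is the first quartile over all genes. The control arrays with and without GH lie together for nearly all markers of both lists, with Lyz2 near 13.84 on control arrays and at a mean of 8.58 on null arrays without GH.

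GH changed 476 of the 18193 genes tested, 2.62% of them. It raised 313 genes (1.72%) and lowered 163 (0.896%), at limma's Benjamini-Hochberg adjusted p below 0.05. The rises were the larger changes. The difference was 2-fold or more for 105 genes that rose (0.577% of all genes) and for 15 that fell (0.0824%). It reached 4-fold for 35 genes that rose and for 0 that fell, and 8-fold for 21 that rose. The median log2 difference was 0.70 among the genes that rose and -0.56 among those that fell, against -0.02 over all genes. The arrays with and without GH did not overlap for any of the 476. Such a gap between 2 and 2 arrays is common, however, since it was present for 16.5% of all genes in the upward and 22.1% in the downward direction.

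Some calls depend on a single array. Without replicate 2 of the GH group 203 genes rose and 92 fell, and without replicate 3 of that group 225 rose and 91 fell. When a change beyond 1.5-fold was required in the test itself, 99 rose and 10 fell. With only the 4 control arrays fitted, 94 genes fell. Among the named genes, the calls lost with 1 array left out were on small changes. The required change of 1.5-fold also ended calls on larger ones, such as Ereg (-1.14) and Junb (1.11). Without replicate 2 of the GH group the calls on Adamts1, Bcl2l1, Btg2, Ccnf, Fas, Has1, Id2, Irak3, Irs1, Slc7a1, Socs5, Spi1, Tlr1, Tlr4, Tyk2 and A330001L22Rik ended, and without its replicate 3 those on Adamts1, Bcl2l1, Btg2, Ccnf, Has1, Irak3, Irs1, Milr1, Saa1, Slc7a1, Socs5, Spi1, Tlr4, Tyk2 and D930003E18Rik. Without replicate 2 of the group without GH the calls on Adamts1, Bcl2l1, Ccnf, Fas, Has1, Irak3, Irs1, Slc7a1, Socs5, Tlr4, A330001L22Rik and D930003E18Rik ended, and without its replicate 3 those on Ccnf, Has1, Id2, Irak3, Milr1, Spi1, Tlr4, Tyk2 and D930003E18Rik. Leaving out a null array, which enters through the shared variance, ended the calls on Tlr4, Tyk2 and D930003E18Rik. All of these calls lost with 1 array left out were on log2 differences smaller than 0.70 in size.

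**Figure D2:**
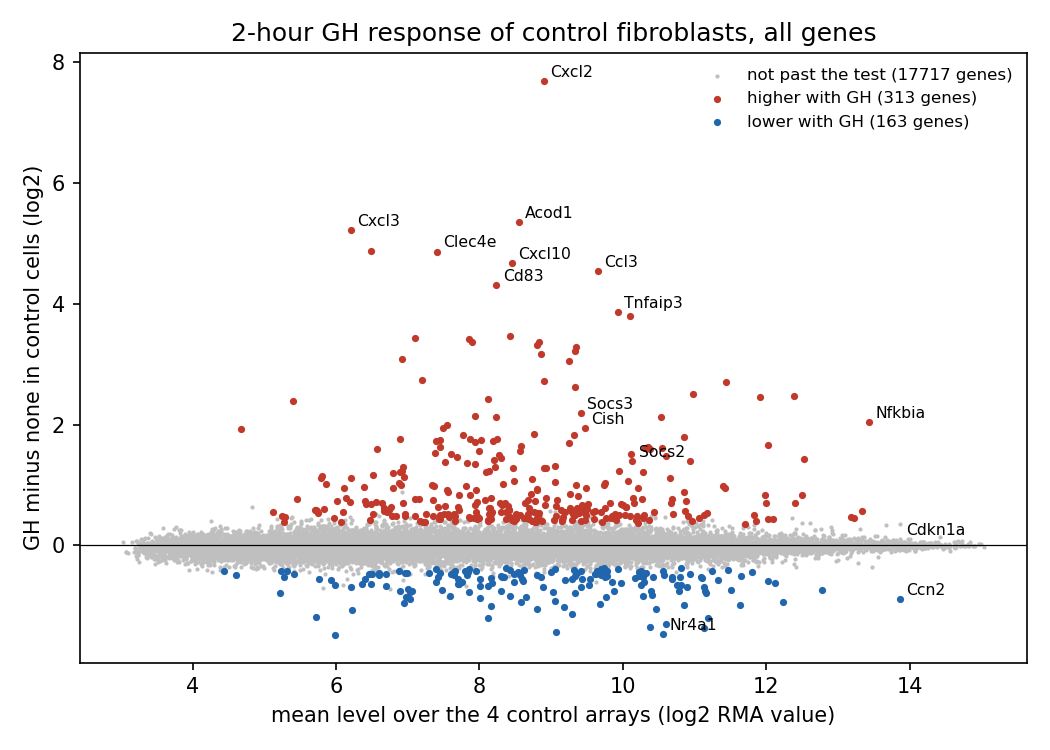
Each point is 1 of the 18193 genes, with its mean level over the 4 control arrays on the x axis and its log2 difference, GH minus none, on the y axis. The 313 genes that rose (red) reach far higher than the 163 that fell (blue) reach down, and Cdkn1a lies at 0.11 among the genes that did not pass the test.

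Cish, Socs1, Socs2 and Socs3, feedback inhibitors of cytokine receptors, rose with GH, whereas Socs5 fell and Socs4 (-0.04), Socs6 (-0.28) and Socs7 (0.14) did not pass the test. Cish, whose protein CIS competes with STAT5 for the receptor, stood at 8.63 and 8.36 without GH and at 10.48 and 10.41 with GH. Both GH arrays lay well above both others, a 3.86-fold rise (adjusted p = 2.26e-07). Socs3, an inhibitor of JAK kinases at receptors of the interleukin 6 family, stood at 8.44 and 8.20 without GH and at 10.48 and 10.54 with GH. It rose 4.56-fold, with all 3 of its probe sets past the test. Socs2, whose protein limits GH receptor signalling and body growth, stood at 9.37 and 9.50 without GH and at 10.82 and 10.84 with GH. Its rise was 2.64-fold, and 5 of its 6 probe sets passed the test. Socs1 rose by 1.03 ± 0.11 on the log2 scale, from 7.70 and 7.94 to 8.88 and 8.81. The kinase gene Pim1, a STAT-driven survival gene, rose by 0.96 ± 0.10.

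Bcl6 moved the other way. This gene encodes a transcriptional repressor that STAT5 is known to turn down, and it stood at 8.33 and 8.55 without GH and at 7.68 and 7.45 with GH. The arrays did not overlap, and the fall was 1.83-fold (-0.87 ± 0.11, adjusted p = 0.000439), with 1 of 2 probe sets past the test. Of the 25 measured STAT5 and GH target genes, 5 rose and 5 fell (20% and 20%, against 1.72% and 0.896% of all genes). Their median was -0.07 against -0.02 over all genes. The 5 that rose were Socs3, Cish, Socs2, Socs1 and Pim1. Besides Bcl6, those that fell were the EGF-type ligand Hbegf (-1.05), the ERK phosphatase Dusp4 (-0.83), the stress gene Gadd45g (-0.52) and the survival gene Bcl2l1 (-0.40). Of these falls 3 were called without replicate 2 or 3 of the GH group, and also 3 without replicate 2 of the group without GH.

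Letters matching the STAT half-site pair TTCNNNGAA were looked for in the RefSeq promoter windows of these genes (GRCm38.p6, 250 bases before to 50 after the start, motif read the same on both strands). No window was matched to Socs2. Cish and Socs3 are shown because they were raised together and both hold the motif, which is in capitals. Bases are printed 5′ to 3′ on the gene's strand, for Cish chr9:107296409-107296678 on the plus strand and for Socs3 chr11:117969367-117969616 on the minus strand.
Cish: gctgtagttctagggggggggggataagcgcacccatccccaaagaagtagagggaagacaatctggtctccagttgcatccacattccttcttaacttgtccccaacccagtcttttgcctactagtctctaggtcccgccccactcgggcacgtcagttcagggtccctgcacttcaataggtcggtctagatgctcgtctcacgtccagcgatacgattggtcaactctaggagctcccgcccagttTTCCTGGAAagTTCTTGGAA
Socs3: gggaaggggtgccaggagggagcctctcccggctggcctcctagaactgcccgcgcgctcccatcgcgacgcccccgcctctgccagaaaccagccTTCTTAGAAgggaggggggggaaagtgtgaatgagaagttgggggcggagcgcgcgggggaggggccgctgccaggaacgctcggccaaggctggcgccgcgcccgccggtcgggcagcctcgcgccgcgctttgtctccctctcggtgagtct
In Cish the motif begins at bases 1 and 12 from the start of the transcript, and in Socs3 it begins 154 bases before the start. It was present in 8.30% of all 32851 promoters, in 8.57% of the 14452 promoters of tested genes, in 10.0% of 239 promoters of genes that rose and in 11.1% of 126 promoters of genes that fell. A match is a description of letters and not a binding site.

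The receptor and its kinases did not pass the test. Ghr, the GH receptor gene, stood at 11.95 and 12.06 without GH and at 12.05 and 11.94 with GH, and Jak2 differed by 0.12 ± 0.11. Stat5a was spread widely within groups, at 7.83 and 7.15 without GH and at 7.47 and 7.77 with GH, and these arrays overlapped. Stat5b differed by -0.09 ± 0.09. Of the 23 GH receptor and JAK-STAT components, 1 rose and 1 fell: Tyk2, a kinase of interferon receptors, by 0.48 and Socs5 by -0.47, and both calls depend on single arrays.

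Cell cycle inhibitors, the subject of the series title, did not pass the test either. Cdkn1a, which encodes p21, stood at 13.88 and 13.76 without GH and at 13.93 and 13.92 with GH, a log2 difference of 0.11 ± 0.10 (SE; limma adjusted p = 0.845). Cdkn2b, which encodes p15, stood at 12.22 and 12.26 without GH and at 12.22 and 12.17 with GH, and differed by -0.05 ± 0.09 (limma adjusted p = 0.956). Of the 8 CDK inhibitor genes, 0 passed, where 2.62% of all genes did, with differences from -0.31 to 0.29. Among the 39 G1/S and DNA replication genes 0 passed, and these lay between -0.27 and 0.25. The cyclin gene Ccnd1 differed by -0.01. Of 32 G2/M genes 1 rose, the cyclin F gene Ccnf (0.40), and 0 rose without any 1 of the 4 control arrays. Myc differed by -0.10 ± 0.09.

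**Figure D3:**
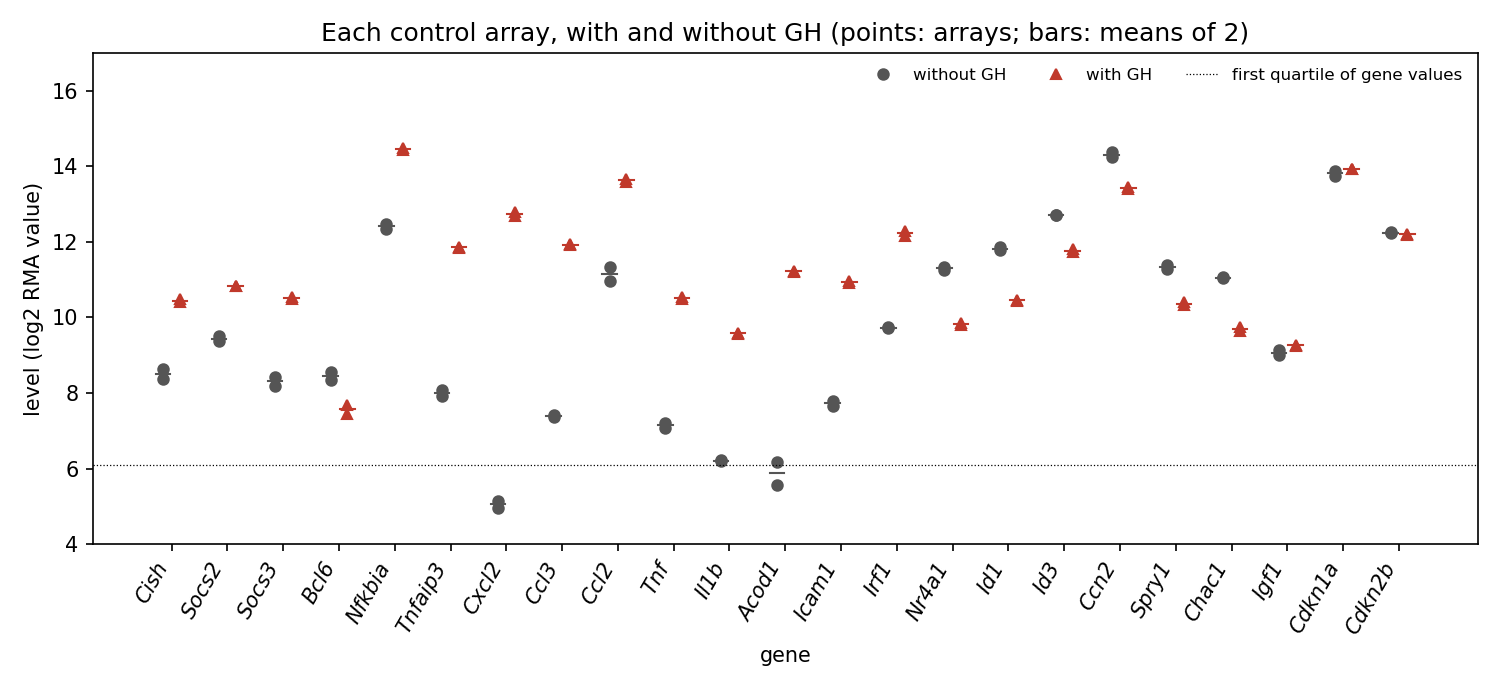
Each point is 1 control array, grey without GH and red with GH, with the log2 RMA level on the y axis and 23 genes of the text on the x axis. Short bars are means of 2 arrays, and the dotted line at 6.10 is the first quartile over all genes. The array groups are separate for Cish, Socs2, Socs3, Nfkbia and the chemokines, whereas those of Cdkn2b lie together.

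NF-kappaB genes had the largest share of rises among the 29 response lists. The lists were chosen with earlier results of these data known, so this ranking is a description and no test. Of 18 measured subunits and inducible inhibitors, 14 rose and 0 fell (77.8% higher, against 1.72% of all genes), with a median of 1.05. Tnfaip3 encodes A20, which edits ubiquitin chains to end NF-kappaB signalling. It stood at 7.92 and 8.07 without GH and at 11.84 and 11.87 with GH, a 14.5-fold rise (3.86 ± 0.12, adjusted p = 1.08e-09). Nfkbia encodes IkappaB-alpha, the inhibitor that holds NF-kappaB in the cytoplasm, and stood at 12.35 and 12.47 without GH and at 14.48 and 14.42 with GH. Its rise was 4.11-fold in this probe set, and its 4 other probe sets gave log2 differences from 2.29 to 3.16. Nfkbie, a related inhibitor, rose 11.0-fold, from 6.68 and 6.71 to 10.24 and 10.08.

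Of the nuclear partners of NF-kappaB, Bcl3, which binds the p50 and p52 subunits, rose 6.62-fold, from 7.69 and 7.37 to 10.31 and 10.21. Nfkbiz, which directs NF-kappaB to secondary targets, rose by 2.12 ± 0.13 on the log2 scale. Among the subunits themselves Relb rose by 1.69, Nfkb2 by 1.06 and Rel by 0.76, whereas Rela, which is often regulated by localisation, differed by 0.31 (limma adjusted p = 0.11). The apoptosis inhibitor Birc3 rose 3.56-fold and Tnfaip2 3.15-fold. The members that did not pass were Rela, Nfkbib, Cyld and Otulin.

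Chemokines, the secreted proteins that attract leukocytes, held the largest rises among genes above the first quartile in both groups, those of Cxcl10 and Ccl3, when 1 probe set stood for each gene. Another probe set of Cxcl1, given below, rose further. Of 26 CXC and CC chemokine genes 14 rose and 0 fell (53.8% higher, against 1.72% of all genes), with a median of 0.93. Cxcl2, a neutrophil chemokine, stood at 5.15 and 4.96 without GH, below the first quartile, and at 12.70 and 12.79 with GH. Set against that quartile as a floor, since a dim probe set cannot be told from background here, its rise was at least 100.1-fold. Cxcl3, a close relative, rose from 3.65 and 3.54 to 9.03 and 8.59, at least 6.56-fold. Cxcl1 has 3 probe sets that differ in size: the brightest stood at 9.71 and 10.47 without GH and 12.83 and 12.75 with GH (log2 difference 2.70), and the others gave 4.73 and 6.70. Cxcl5, of the same family, rose 10.7-fold from 6.14 and 6.16 to 9.61 and 9.52.

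Several chemokines of monocytes and T cells were among the 14, while Ccl8 (0.26), Ccl17 (0.12), Ccl22 (0.17) and Cxcl11 (0.06) did not pass. Ccl3, which attracts monocytes and macrophages, stood at 7.36 and 7.41 without GH and at 11.94 and 11.91 with GH. The arrays within each group differed by far less than the groups did, and the rise was 23.3-fold. Ccl4, its neighbour in function, rose 13.9-fold from 8.20 and 8.21 to 12.05 and 11.96, and Ccl5 rose 9.97-fold. Cxcl10, an interferon-inducible attractant of T cells, rose 25.4-fold from 5.83 and 6.41 to 10.96 and 10.62. One of its arrays without GH lay below the first quartile. The monocyte chemokine Ccl2 rose 5.58-fold from 10.96 and 11.35 to 13.68 and 13.59, and Ccl7 rose 5.46-fold. Ccl9, Ccl20, Cx3cl1 and Cxcl16 rose by 1.61, 1.31, 1.23 and 0.64 on the log2 scale. Cxcl12, which fibroblasts make without stimulation, stood at 13.57 and 13.54 without GH and at 13.51 and 13.61 with GH. Cxcl9, at 5.40 to 5.62 on the 4 arrays, stayed below the first quartile.

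Promoter windows of 3 of these genes are shown because they were raised strongly and hold letters of the NF-kappaB motif, GGG and TTTCC with 2 bases of any kind between them, searched on both strands and printed in capitals. They are taken from RefSeq (GRCm38.p6) and lie at chr12:55492648-55492897 on the minus strand for Nfkbia, chr5:90890995-90891244 on the plus strand for Cxcl1 and chr5:90903649-90903898 on the plus strand for Cxcl2.
Nfkbia: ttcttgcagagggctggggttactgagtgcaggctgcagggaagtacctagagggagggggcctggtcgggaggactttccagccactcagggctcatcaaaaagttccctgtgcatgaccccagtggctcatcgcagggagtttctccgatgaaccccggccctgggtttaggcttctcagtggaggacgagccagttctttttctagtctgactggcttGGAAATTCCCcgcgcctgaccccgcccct
Cxcl1: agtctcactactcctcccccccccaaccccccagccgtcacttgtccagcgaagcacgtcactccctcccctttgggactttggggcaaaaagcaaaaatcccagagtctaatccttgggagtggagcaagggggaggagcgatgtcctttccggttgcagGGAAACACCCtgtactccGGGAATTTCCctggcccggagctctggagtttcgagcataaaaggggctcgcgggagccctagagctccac
Cxcl2: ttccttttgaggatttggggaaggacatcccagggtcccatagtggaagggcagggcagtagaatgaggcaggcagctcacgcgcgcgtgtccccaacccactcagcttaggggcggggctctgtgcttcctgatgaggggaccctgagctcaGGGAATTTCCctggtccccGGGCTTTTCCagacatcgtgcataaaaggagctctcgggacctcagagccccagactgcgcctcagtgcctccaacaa
The motif begins 29 bases before the start in Nfkbia, 89 and 71 bases before it in Cxcl1 and 97 and 78 bases before it in Cxcl2. It was present in 1.63% of all promoters, 1.89% of those of tested genes, 8.37% of those of genes that rose (20 of 239) and 3.97% of those of genes that fell (5 of 126). With looser letters, GGG and TTCC with 3 bases between them, the shares were 5.56%, 6.83%, 14.2% and 8.73%. With stricter letters, GGGA and TTTCC with 1 base between them, they were 0.411%, 0.547%, 4.18% and 0%. The AP-1 motif TGANTCA was present in 7.81% of all promoters, 7.54% of those of tested genes, 12.1% of those of genes that rose and 6.35% of those of genes that fell. These shares are counts of letters, with no test, and both Cxcl genes lie side by side on 1 chromosome and share sequence.

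Inflammatory cytokine genes rose in 11 of 24 cases and fell in 0 (45.8% higher against 1.72% of all genes, median 0.40). Tnf, which encodes tumour necrosis factor, stood at 7.21 and 7.07 without GH and at 10.48 and 10.55 with GH, a 10.4-fold rise. Il1b, which encodes interleukin 1 beta, stood at 6.23 and 6.19 without GH, close to the first quartile, and at 9.57 and 9.59 with GH. Its rise was 10.3-fold. Tnfsf9, which encodes the T cell costimulator 4-1BB ligand, rose 8.25-fold, from 7.63 and 7.82 to 10.76 and 10.78. Il12b, a subunit of interleukins 12 and 23, and Ebi3, a subunit of interleukin 27, came from below the first quartile and rose at least 5.13-fold and at least 3.20-fold. Il1a rose at least 1.41-fold, from 4.32 and 4.09 to 6.77 and 6.42.

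Other cytokine genes of the 11 are ones that fibroblasts can also make. Il6, the main driver of acute phase genes, rose 2.44-fold from 7.67 and 7.98 to 9.17 and 9.04, and Lif, of the same family, 2.33-fold. The lymphocyte growth factor Il15 rose by 1.23, and the colony-stimulating factors Csf2 and Csf1 by 0.76 and 0.45. Csf3 stood at 7.27 and 7.02 without GH and at 7.25 and 7.04 with GH, and did not pass. The interferon gene Ifnb1 (0.34) and the anti-inflammatory gene Il10 (-0.05), both dim, did not pass either.

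Genes known from activated macrophages rose in 21 of 38 cases and fell in 0 (55.3% higher against 1.72% of all genes, median 0.80). Acod1, which makes the antibacterial metabolite itaconate, stood at 6.18 and 5.57 without GH and at 11.22 and 11.21 with GH, a rise of at least 34.8-fold. Clec4e, a receptor for mycobacterial glycolipids, rose at least 13.3-fold, from 5.08 and 4.87 to 9.76 and 9.91. Cd69, an early activation marker of leukocytes, rose at least 7.10-fold, from 4.20 and 3.92 to 9.01 and 8.84. These 3 genes were dim on both arrays without GH or on one of them, and bright on both arrays with GH. Other genes from a dim level were Cd83, a surface protein of activated antigen-presenting cells (at least 19.6-fold, from 6.04 and 6.13 to 10.39 and 10.39), and the noncoding or small-protein gene AW112010 (at least 6.58-fold, from 5.44 and 5.33 to 8.93 and 8.70).

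Of the same list Icam1, which binds leukocyte integrins, rose 9.28-fold from 7.66 and 7.79 to 10.97 and 10.91, and Vcam1 1.78-fold. Ccrl2, an atypical chemokine receptor gene outside the list, rose 8.96-fold from 7.33 and 7.22 to 10.47 and 10.41. In the list Cd40, which receives T cell help, rose 2.81-fold, and Cybb, the catalytic subunit of the phagocyte oxidase, 2.44-fold. The Cybb values were 8.45 and 8.05 without GH and 9.59 and 9.49 with GH. The inducible enzymes Nos2 (0.18) and Ptgs2 (-0.28) did not pass, nor did Lcn2 (0.12, dim in both groups) or Sod2 (0.33).

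Of 22 Toll-like receptors and adaptors, sensors of microbial products, 4 rose and 1 fell, with a median of -0.02. These shares, 18.2% and 4.55%, stood against 1.72% and 0.896% of all genes, and most members did not pass the test. Tlr2, the receptor for bacterial lipoproteins, rose 6.16-fold from 8.15 and 7.90 to 10.67 and 10.62. Cd14, which hands lipopolysaccharide to TLR4, rose 3.47-fold from 9.98 and 9.93 to 11.74 and 11.76. Tlr1, the partner of TLR2, rose by 0.56 and the brake Irak3 by 0.40. Tlr4 itself, at 7.68 and 7.68 without GH and 7.30 and 7.17 with GH, fell by 0.45. Its call ended without any 1 of the 4 control arrays, and without replicate 2 of the GH group 2 of the list rose. Its co-receptor gene Ly96 (-0.12) and the adaptor Myd88 (0.02) did not pass.

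Acute phase and STAT3 target genes rose in 5 of 27 cases and fell in 1, with a median of 0.07. These shares were 18.5% and 3.70%, against 1.72% and 0.896% of all genes. Saa3, a serum amyloid gene made outside the liver, rose 9.75-fold from 7.68 and 7.73 to 11.11 and 10.88. Tnfrsf1b, the second TNF receptor, rose 4.39-fold and Junb 2.16-fold. The metallothionein gene Mt2 rose by 0.57. Saa1 fell by 0.52, with all 4 arrays below the first quartile. Lcn2, Hp and Osmr, other well known members, did not pass.

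Interferon response genes were divided, with 9 of 38 higher and 2 lower (23.7% and 5.26%, against 1.72% and 0.896% of all genes). Their median was 0.10. Irf1, a transcription factor of both interferon and NF-kappaB responses, rose 5.69-fold from 9.71 and 9.74 to 12.16 and 12.30. The guanylate-binding protein genes Gbp3, Gbp7 and Gbp2 rose 4.41-fold, 2.90-fold and 2.08-fold, and the antiviral gene Ifit1 rose 2.31-fold. Other well known members did not pass, among them Mx1 (0.13), Irf7 (-0.12), Bst2 (-0.15) and Ifit2 (-0.39). Irf8, which directs monocyte development, fell by 0.75, from 7.19 and 7.35 to 6.58 and 6.45, and Ifit3 fell by 0.39. With any 1 array left out, 1 of these falls was called.

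Genes of mRNA decay and translation control in inflammation rose in 6 of 15 cases (40% higher against 1.72% of all genes, median 0.05). Zc3h12a, which encodes the nuclease regnase-1, rose 3.13-fold from 7.81 and 7.69 to 9.31 and 9.49. Zfp36, which encodes tristetraprolin, a protein that binds AU-rich elements, rose 2.84-fold from 9.41 and 9.32 to 10.92 and 10.82. Its relatives Zfp36l1 and Zfp36l2 rose by 0.98 and 0.70, and Zc3h12c by 1.14. The clock-linked gene Noct was the 1 member that fell (-0.97).

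Matrix proteases and their inhibitors rose in 2 of 20 cases and fell in 1 (10% and 5%, against 1.72% and 0.896% of all genes). The collagenase gene Mmp13 rose 2.53-fold from 7.07 and 7.46 to 8.72 and 8.50. The aggrecanase gene Adamts4 rose 2.00-fold, and Adamts1 fell by 0.50. Of 14 prostaglandin genes 0 rose and 1 fell (7.14% lower). This was the prostaglandin E receptor Ptger4, which fell by 1.05 from 9.32 and 9.33 to 8.45 and 8.09.

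**Figure D4:**
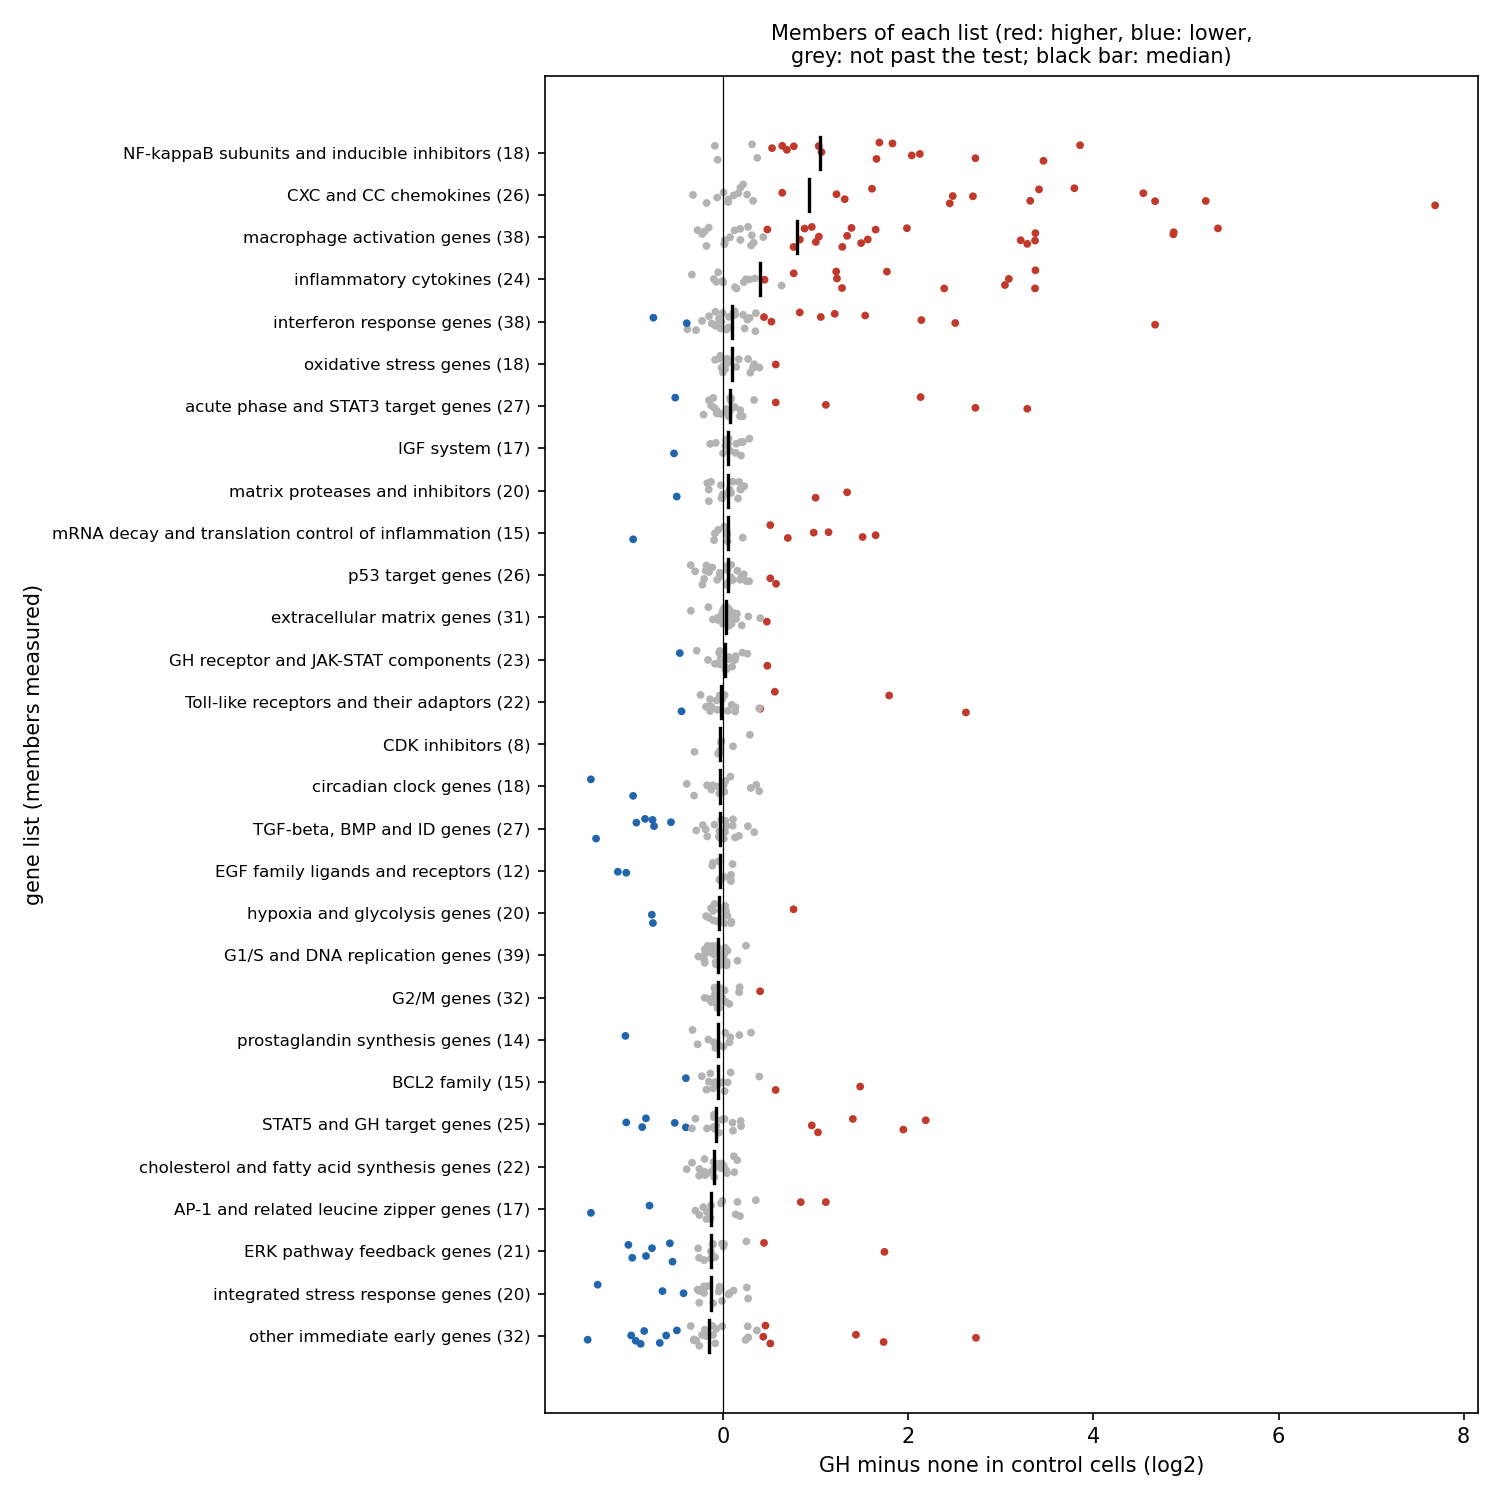
Each point is 1 gene, placed by its log2 difference, GH minus none in control cells, in the row of its list, with the number of measured members in brackets. Red members rose, blue members fell, grey members did not pass the test, and black bars are medians. The NF-kappaB list has a median of 1.05 and the chemokine list 0.93, whereas the medians of the cell cycle lists are near -0.05.

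Early genes of growth factor signalling went both ways. Of 32 immediate early genes outside the AP-1 family 8 fell and 6 rose (25% lower against 0.896% of all genes, median -0.15). Nr4a1, an orphan nuclear receptor, had the largest fall among genes measured above the first quartile in both groups, with 1 probe set for each gene. It stood at 11.34 and 11.26 without GH and at 9.86 and 9.81 with GH, 2.76-fold lower (-1.46 ± 0.09, adjusted p = 8.26e-07). The YAP targets Ccn2 and Ccn1 fell by 0.89 and 0.99. Ccn2 stood at 14.25 and 14.37 without GH and at 13.40 and 13.45 with GH. For Ccn1 the probe sets contradict each other, since 2 were lower and 2 dimmer ones were higher by 1.16 and 1.20, so its direction is uncertain. Rgs2 fell by 0.94, Plk3 by 0.85, Hes1 by 0.68, Egr1 by 0.61 and Srf by 0.50. Egr1 stood at 10.30 and 10.26 without GH and at 9.59 and 9.74 with GH. Under a required change of 1.5-fold, 1 of the 8 falls was called.

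The early genes that rose were Gem, a small GTPase (at least 5.51-fold, from 5.86 and 5.80 to 8.60 and 8.52), Rgs1, a regulator of G protein signalling in leukocytes (3.33-fold), and Ier3, a survival gene downstream of NF-kappaB (2.70-fold, from 11.74 and 11.87 to 13.24 and 13.24). Btg2, Phlda1 and Btg1 rose by 0.51, 0.46 and 0.43. Without replicate 2 or 3 of the GH group 3 of the 6 rose. Of 17 AP-1 and related leucine zipper genes 2 rose, Junb (1.11) and Cebpb (0.84), and 2 fell, Nfil3 and Atf3. Nfil3 stood at 9.81 and 9.74 without GH and at 8.35 and 8.34 with GH, 2.69-fold lower, and Atf3, a stress-induced repressor, fell by 0.79. Fos (-0.30), Fosb (-0.21) and Jun (0.35) did not pass.

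Feedback genes of the ERK pathway fell in 6 of 21 cases and rose in 2 (28.6% lower against 0.896% of all genes, median -0.13). Spry1 and Spry2, which block receptor tyrosine kinase signalling, fell by 0.98 and 1.02. Spry1 stood at 11.39 and 11.29 without GH and at 10.32 and 10.40 with GH, and Spry2 at 9.48 and 9.90 without GH and 8.81 and 8.52 with GH. The phosphatase genes Dusp4, Dusp6, Dusp1 and Dusp5 fell by 0.83, 0.77, 0.58 and 0.55. Dusp2, a phosphatase typical of leukocytes, went up 3.35-fold from 7.12 and 7.17 to 9.0 and 8.78. The EGF family had 0 of 12 higher and 2 lower, the ligands Ereg (from 9.75 and 9.97 to 8.90 and 8.55) and Hbegf (from 10.91 and 11.07 to 9.79 and 10.09). A required change of 1.5-fold removed all 6 of the ERK feedback falls.

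ID proteins, which block basic helix-loop-helix transcription factors and are classic BMP targets, fell together. All 4 Id genes, the BMP pseudoreceptor Bambi and the ligand Bmp4 were the 6 genes that fell among 27 TGF-beta, BMP and ID genes. Of this list 22.2% fell, against 0.896% of all genes, and 0 rose, with a median of -0.03. Id1 stood at 11.77 and 11.88 without GH and at 10.44 and 10.46 with GH, 2.59-fold lower (-1.37 ± 0.11, adjusted p = 6.54e-06). Id3 fell by 0.94 from 12.71 and 12.71 to 11.81 and 11.74, Bambi by 0.84, Id4 by 0.76, Bmp4 by 0.75 and Id2 by 0.56. The inhibitory SMAD genes Smad6 (-0.03) and Smad7 (-0.19), targets of the same pathway, did not pass. Without 1 array at a time 5 or 6 of these genes fell, and 1 with a required change of 1.5-fold.

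In the integrated stress response, circadian clock and hypoxia lists 15%, 11.1% and 10% of members fell, against 0.896% of all genes. Chac1, a glutathione-degrading enzyme of the ATF4 response, stood at 11.05 and 11.06 without GH and at 9.65 and 9.74 with GH, 2.56-fold lower. With the pseudokinase gene Trib3 (-0.65) and the arginine transporter gene Slc7a1 (-0.43) it made 3 falls among 20 integrated stress response genes, whereas Atf4 (-0.26), Ddit3 (-0.20) and Asns (-0.11) did not pass. Of 18 circadian genes 2 fell, Nfil3 and Noct, and the core clock genes Arntl (0.02) and Per2 (-0.04) did not pass. Of 20 hypoxia genes Ndrg1 rose (0.76), and Adm and Ankrd37 fell (-0.76 and -0.77). Bcl2l11, which encodes the death promoter BIM, rose 2.79-fold from 9.75 and 9.96 to 11.14 and 11.53, with all 5 of its probe sets past the test, and Bid rose by 0.57. Of 26 p53 targets Fas (0.57) and Btg2 (0.51) rose, and 0 rose without replicate 2 of the GH group.

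Lists of structural and growth genes of the fibroblast had 0 or 1 call each, where 2.62% of all genes were called. Counts this small in lists of this size do not set them apart from all genes. Among 31 extracellular matrix genes 1 rose (3.23%, against 1.72% of all genes), the hyaluronan synthase Has1 (0.47). Its call depends on single arrays. The collagen gene Col1a1 differed by 0.14. The cholesterol and fatty acid list had 0 of 22 past the test, with a lowest difference of -0.39 for Msmo1. Among 18 oxidative stress genes only Mt2 rose. Igf1, the main growth mediator of GH, stood at 9.0 and 9.14 without GH and at 9.25 and 9.28 with GH, a log2 difference of 0.19 ± 0.09 (limma adjusted p = 0.502). In the IGF list of 17 genes, 1 fell, the insulin receptor substrate Irs1 (-0.53), and its call depends on single arrays.

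Several of the largest falls lay outside these lists. Cdc42ep3, an effector of the GTPase CDC42, fell 2.46-fold from 11.09 and 11.42 to 10.00 and 9.92. The chemokine receptor gene Cxcr4 fell 2.30-fold from 8.62 and 8.82 to 7.56 and 7.49. Snai2, a mesenchymal transcription factor, fell 2.29-fold from 11.78 and 11.81 to 10.69 and 10.50. The RNA-editing enzyme gene Apobec1 fell 2.01-fold. Some genes fell to a level below the first quartile, so their falls are lower bounds: the chemokine receptor Ccr1 (at least 1.57-fold), the leukocyte receptor Cd300lb (at least 1.54-fold) and the mast cell receptor Milr1 (at least 1.49-fold). The poorly described genes D930003E18Rik, AI467606 and A330001L22Rik fell at least 1.36-fold, 1.16-fold and 1.16-fold.

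The GH response of control cells was set against that of null cells in the same model, where 938 genes had a different response (5.16% of those tested, with the control response above the null response for 2.33% and below it for 2.83%). This test shares the control arrays with the choice of the 476 genes. Of the 313 genes that rose, 142 had a larger response in control cells, 42 a larger response in null cells, and 129 did not pass. In null cells GH raised 975 of all genes (5.36%) and lowered 1155 (6.35%). Of the 313, 150 rose and 23 fell in null cells, and 36 were below the first quartile in both null groups. The count of 938 rests on single arrays: it was 586 and 561 without replicate 2 or 3 of the control group with GH, 585 without replicate 2 of the null group without GH, and 437 and 459 without replicate 2 or 3 of the null group with GH.

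Feedback genes were among those with a larger response in control cells. Cish differed by 0.06 between null cells with and without GH, and the control response exceeded this by 1.88 (limma adjusted p = 1.74e-05). For Socs3 the null difference was -0.02 and the excess 2.21. Socs2 had an excess of 1.17, while for Socs1 and Pim1 the difference between the responses did not pass. Bcl6 differed by 0.14 in null cells, with a difference of -1.01 between the responses.

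The inflammatory genes were divided. Ccl4 differed by -0.13 in null cells (excess 3.92), Tnf by 0.08 (3.29) and Il1b by -0.10 (3.47), and their excess in control cells passed the test. In null cells Il1b lay close to the first quartile, at means of 6.21 and 6.12, so its excess is not firm in size. Ccl3, Cd83 and Clec4e responded more in control cells as well, but lay below the first quartile in both null groups (Ccl3 at means of 5.35 and 5.37, Cd83 at 5.26 and 5.41, Clec4e at 4.63 and 4.78), so the size of the excess is not firm. The summed level of the macrophage list was 15.27 to 15.41 on the control arrays and 11.10 to 11.22 on the null arrays. The part of this list in the difference between the responses was not tested. Other genes responded in both genotypes. Tnfaip3 rose by 4.40 in null cells and Icam1 by 3.88, and for neither did the difference between the genotypes pass. Cxcl2 and Cxcl5 rose in null cells from means below the first quartile (4.85 and 4.47) to 11.37 and 9.58. Larger in null than in control cells were the responses of Saa3 (5.79 against 3.29), Ccl2 (4.12 against 2.48), Ccl7 (4.15 against 2.45) and Gbp2 (3.31 against 1.05).

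The genes that fell in control cells were divided too. Of the 163, 90 had a more negative response in control cells, 1 (Id2) a more negative one in null cells, and 72 did not pass. In null cells 26 of them fell and 29 rose (against 6.35% and 5.36% of all genes). Of the 163, 24 lay below the first quartile in both null groups, where a fall could not have been measured. For those genes a more negative response in control cells is not firm. Ereg fell by 1.14 in control cells and rose by 1.42 in null cells, and Noct fell by 0.97 in control cells and rose by 1.54 in null cells. For Nr4a1 the differences were -1.46 in control and -1.48 in null cells, and the responses did not pass the test of a difference (limma adjusted p = 0.964).

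**Figure D5:**
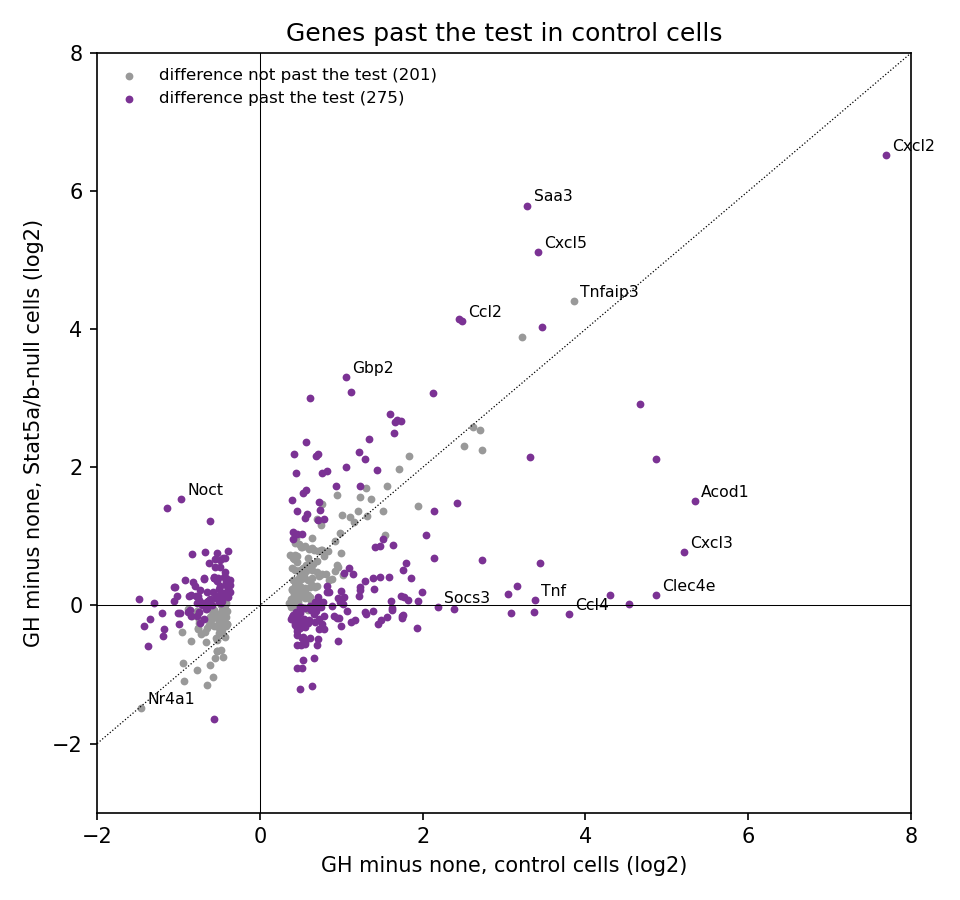
Each point is 1 of the 476 genes past the test in control cells, with its log2 difference, GH minus none, in control cells on the x axis and in Stat5a/b-null cells on the y axis. The dotted line marks equal responses, and purple points are the 275 genes whose responses differed. Ccl4, Tnf, Clec4e and Socs3 lie near 0 in null cells, Tnfaip3 lies near the line, and Saa3 lies above it. Clec4e is one of 36 genes that rose in control cells and lay below the first quartile in both null groups.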

How the data were processed

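RNA from 8 arrays of mouse embryonic fibroblasts was analysed from the series' table of values. The deposited log2 values were made by the authors with the robust multi-array average (RMA) in Partek 6.10.0511, per the submitters' processing notes. RMA corrects background, equalises the arrays' distributions and summarises the probes of each set. No source used here gives its settings, and the values carry no detection call. The number of arrays limits the precision, and a gene's residual SD had a median of 0.097 (log2). Array medians lay between 6.89 and 6.96.

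The table's 45101 probe sets include 64 controls, which were dropped. Of the 45037 that remained, 34945 have 1 annotated gene, 932 have several and 9160 have none, and only the first kind was named and tested. Symbols were updated through Entrez identifiers in the RefSeq table of GRCm38.p6 for 34741, and 204 kept the annotated name. The probe set with the highest mean over all arrays stood for a gene (9010 of 18193 genes had several). A model with a mean for each group was fitted to all 8 arrays with limma 3.58.1 in R 4.3.3, with 4 residual and 7.82 prior degrees of freedom, and calls were made at an adjusted p below 0.05 over all genes (Benjamini-Hochberg). Errors given with log2 differences are standard errors (SE) from this fit, with 2 arrays a group, and every adjusted p is limma's. The script was tested on simulated data. Where a group mean lay under 6.10, the first quartile over all genes and all 8 arrays, the dim side was set to that quartile. The fold was then given as a lower bound.

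The members, the 29 gene lists and 10 marker lists, the tests and the rule for naming genes were chosen with earlier results of these data known. Named are 14 genes of GH signalling, growth and the cell cycle, the 15 largest rises and 15 largest falls above the first quartile in both groups, 6 rises and 6 falls with a dim side, up to 6 members per list with the lowest adjusted p, and the 6 named genes with the lowest p for the difference from null cells. Other members of a list are named as examples, chosen after their values were seen. Same-numbered arrays did not deviate together (correlation of deviations -0.279 for the control groups, -0.157 to 0.129 for the other pairs of groups), so the numbers were not taken as pairs. The closing section gives the effect of other settings.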

Additional observations from a re-analysis of the deposited data

Results flagged for a closer look

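A test of the difference between genotypes found another GH response in control than in Stat5a/b-null cells for 938 genes, among them 42 of the named genes below, taken from GH signalling and from the largest rises and falls. Each value is the control response minus the null response on the log2 scale, from limma at an adjusted p below 0.05, and each rests on the control arrays that also chose the gene. Feedback inhibitors responded more in control cells: Socs3 by 2.21, Cish by 1.88 and Socs2 by 1.17. So did the chemokines Ccl4 (3.92), Cxcl10 (1.75) and Ccl5 (1.17), the cytokines Il1b (3.47), Tnf (3.29) and Tnfsf9 (2.87), and the chemokine receptor gene Ccrl2 (2.88).

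The control response lay below the null response for Ereg (-2.56), Noct (-2.51), Saa3 (-2.50) and Nfkbie (-0.57). Among genes that fell in control cells it was lower for Cdc42ep3 (-1.34), Hbegf (-1.32), Ptger4 (-1.32), Spry2 (-1.16), Chac1 (-1.15), and Nfil3 (-1.14). Smaller differences were those of Bcl6 (-1.01), Apobec1 (-0.89), Spry1 (-0.87), Id1 (-0.78) and Snai2 (-0.76). Ccn1 gave -0.72 and -0.67 in the 2 probe sets that fell and 0.91 and 0.89 in the 2 that rose, so its direction is uncertain. Jak2 (-0.75), Myc (-0.57) and Cdkn2b (-0.49) did not pass the test in control cells, but their responses differed between the genotypes.

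For 13 genes the fitted difference rests on null values below the first quartile, so it gives no firm size. Below it in both null groups were Clec4e (4.71), Ccl3 (4.52), Cd83 (4.15), Cd69 (2.75), Cd300lb (-1.57), Ccr1 (-1.13), Cxcr4 (-1.10), AI467606 (-0.84) and Milr1 (-0.71). A further fall of the last 5 in null cells could not have been measured, so their direction is not firm either. Below it only in null cells without GH were Acod1 (3.84), AW112010 (2.82), Cxcl2 (1.17) and Cxcl5 (-1.71). Il1b lay just above the first quartile in both null groups, at means of 6.21 and 6.12. With dim means set to the first quartile, the difference for Cxcl5 was -0.07 against a standard error of 0.27, so no direction is taken for it.

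Groups of 2 arrays are too small to look for single arrays that stand apart.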

How the results depend on the processing

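Of 110 named genes past the test in control cells, 59 kept direction and call under all 17 settings, and 51 lost the call under at least 1, most often when a change beyond 1.5-fold was required. Ccn1 reversed to 0.12 (adjusted p = 0.704) when its probe sets were averaged, since they run in opposite directions. A required change of 1.5-fold left 99 genes higher, 10 lower and 90 with a different response between the genotypes, which follows from the stricter test. With only the 4 control arrays 94 genes were lower. Each probe set tested alone gave different responses for 1621 of 34945 probe sets, against 938 of 18193 genes in the main fit. With 1 array left out, 203 to 302 genes were higher, 91 to 158 lower and 437 to 872 different in response. Of the 476 genes, 288 were called without replicate 2 and 297 without replicate 3 of the control GH group. Centring the arrays moved the median of all genes to -0.05 and the share of different responses above 0 from 45.1% to 30.9%. The replicate number as a block gave 287 higher, 140 lower and 754 different responses, and crossed numbers, tried after seeing the data, 319, 168 and 928. The cause of these shifts was not tested. The deposited values have no detection calls, so signal over background limits what can be said of dim genes.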

Other observations

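Of the 476 genes, 212 that rose and 122 that fell belong to none of the lists. The genes below were chosen after their values were seen, from the 20 largest rises and 12 largest falls that remained among them, above the first quartile in both groups, once the genes named by rule (such as Cdc42ep3 and Snai2) were set aside. Hivep3, a zinc finger protein that binds kappaB-like DNA, stood at 6.94 and 6.88 without GH and at 9.27 and 9.38 with GH, 5.34-fold higher, but only 1 of its 5 probe sets passed the test. Nlrp3, the sensor of the inflammasome that activates interleukin 1 beta, rose 3.61-fold from 7.89 and 7.77 to 9.73 and 9.63. Map3k8, a kinase that links NF-kappaB activation to ERK, rose 3.26-fold, and Ch25h, which makes the oxysterol 25-hydroxycholesterol, 3.03-fold. Leukocyte genes in this set were Plek (3.07-fold, from 9.72 and 9.77 to 11.39 and 11.34), the formyl peptide receptor Fpr2 (3.09-fold) and the adaptor Lcp2 (2.94-fold). In null cells Plek differed by -0.03 and Fpr2 by -0.06, whereas Map3k8 rose by 1.98 and Ch25h by 2.77. The macrophage list was lower on the null arrays, and its part was not tested.

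Cebpa, a transcription factor of adipocyte and myeloid differentiation, fell 1.80-fold from 10.22 and 10.15 to 9.28 and 9.39, and Hhex, a homeobox gene, 1.81-fold. Tmcc3 fell 1.72-fold in its brightest probe set, and all 5 of its probe sets passed the test. Of the 476 genes, 52 (0.286% of all genes) passed the test in opposite directions in control and null cells, 29 of them lower and 23 higher with GH in control cells. Klf5, a growth-related transcription factor, fell by 0.61 in control cells and rose by 1.22 in null cells. The ephrin gene Efna1 rose by 0.64 in control cells and fell by 1.17 in null cells, and Ppp1r3c, a glycogen-targeting subunit, rose by 0.49 and fell by 1.21.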
